A study of Mus musculus with 8 samples.

Results

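The transcripts described here encode the plasminogen activators Plau (urokinase) and Plat (tissue-type plasminogen activator), the urokinase receptor Plaur, and the serpins Serpinb2, Serpine2 and Serpinf1. They are 6 of the 24573 genes in the deposited count table and were found by their gene IDs. All 6 passed the filter on low counts, which kept 12420 genes. The genes were chosen by function with results of the knockdown comparisons in view. No single contrast is recorded as the reason, so every comparison between groups is treated here as used in the choice. Their fold changes and adjusted p-values are therefore a description of where they stand in the table and are not independent tests.

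RNA was sequenced from C2C12 cells, a mouse skeletal myoblast line, grown below confluence in medium with 10% calf serum. All 4 groups carried a lentiviral short hairpin RNA (shRNA), delivered with polybrene at 8 µg/ml, selected with puromycin at 2 µg/ml and kept in puromycin at 1 µg/ml. The control hairpin was a scramble sequence, and the others were directed against Brd9, Baf250A (gene Arid1a) or Baf180 (gene Pbrm1), subunits of the ncBAF, cBAF and PBAF forms of the SWI/SNF chromatin remodelling complex. Each group had 2 libraries. Each target has 1 hairpin code in the sample titles, while the genotype label uses the plural, so the number of hairpins per target is not settled. No hairpins to the same target can be compared, and an effect on other genes cannot be told apart from loss of the target. The labels do not tell whether the libraries of a group are separate cultures, so the p-values rest on a spread that may be technical. The comparisons of the knockdowns with scramble share the same 2 control libraries.

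Plasminogen activators cleave plasminogen, an inactive precursor, into plasmin, a protease that digests fibrin and matrix proteins and releases or activates growth factors and metalloproteinases. Urokinase does this mainly at the cell surface, bound to its receptor, and tissue-type plasminogen activator mainly on fibrin. Serpins such as Serpinb2 (PAI-2) and Serpine2 (protease nexin-1) trap these proteases in covalent complexes, which cells clear through receptors of the LDL receptor family. In skeletal muscle the urokinase system is known for its part in myoblast migration and in regeneration after injury.

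The libraries held 17763062 to 20400855 estimated counts, and levels below are CPM, library-size-scaled counts adjusted by TMM (trimmed mean of M values). The genes targeted by the hairpins were lower in the libraries that carry them, Brd9 by 5.24-fold, Arid1a by 2.41-fold and Pbrm1 by 12.4-fold. Pbrm1 was also 1.85-fold higher with Baf250A shRNA than with scramble (means 97.3 and 52.6 CPM, edgeR adjusted p = 0.0211), with 74.6 and 120.1 CPM in the Baf250A libraries. The scramble replicate 2 library stood apart in that 16402 genes had a count in it, against 14195 to 14768 in the other libraries, so results are also given without it where a call was lost. Fold changes followed the GC content of transcripts, with a Spearman correlation across 12290 genes, which are not independent replicates, of −0.295 (Brd9), −0.53 (Baf250A) and 0.595 (Baf180) against scramble. Another fit removed the trends with GC content and gene length in each library by offsets, which also remove any real change that follows GC content. Its values are given where they change the call or the sign of a fold change stated below, or move a called log2 fold change by over 1.5 times. For comparisons of the same genes that are not stated, offset values are left out, though call and sign could change there too. Among the further genes described below, Met with Baf250A shRNA went from 0.14 to −0.29 with the offsets (edgeR adjusted p = 0.0236). Hgf with Baf180 shRNA went from 0.36 to 1.02 (edgeR adjusted p = 0.000394).

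The cells carried the defining markers of myoblasts. Of 8 myoblast markers, 7 reached at least 100 counts in at least 1 library (Myod1, Myf5, Pax7, Des, Cdh15, Itga7 and Chrna1), with Myog below that. Pax7 had only 57 and 48 counts with scramble and 18 and 4 with Baf250A shRNA. The summed level of the 8 was 1887.7 to 1905.0 CPM with scramble, 1485.9 to 1932.3 with Brd9, 782.5 to 1006.0 with Baf250A and 2462.5 to 3495.9 with Baf180 shRNA. Single markers did not all follow the sum. With Baf180 shRNA mean Myf5 fell from 25.1 to 8.94 CPM while Myod1 rose from 155.2 to 329.3. With Baf250A shRNA Chrna1 fell furthest, from 301.9 to 15.9 CPM, and Myog stayed at 0.231 against 0.228. The macrophage markers Adgre1, Itgam and Aif1, the endothelial markers Tie1 and Emcn and the adipocyte markers Plin1, Cidec and Retn had 0 counts in every library. Over the whole lists the summed levels were 2.07 to 3.59 CPM for 7 macrophage markers, 0.281 to 0.63 for 6 endothelial markers and 0.0578 to 0.568 for 5 adipocyte markers. The 4 markers of fibro-adipogenic progenitors, of which Pdgfra and Ly6a made up nearly all, summed to 25.0 to 26.4 CPM with scramble, 48.9 to 66.0 with Brd9, 98.6 to 111.7 with Baf250A and 60.4 to 61.9 with Baf180 shRNA. These marker levels moved with the groups that are compared below, and their part in the results was not tested. In bulk RNA, fewer cells of a type and less RNA per cell cannot be told apart.

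Counts of genes at an adjusted p below 0.05 in edgeR's quasi-likelihood test, here said to be called, give the setting for the 6 genes. Against scramble, 10.0% of all tested genes were called with Brd9 shRNA (6.45% higher, 3.57% lower), 29.5% with Baf250A shRNA (15.5% higher, 14.0% lower) and 34.2% with Baf180 shRNA (17.2% higher, 17.0% lower). With Brd9 shRNA 2 of the 6 genes were called, Plat higher and Plaur lower. With Baf250A shRNA there were 3, Serpinb2 higher and Plau and Plaur lower. With Baf180 shRNA there were 5, with Plau, Plat, Serpine2 and Serpinf1 higher and Serpinb2 lower. The median log2 fold change of the 6 genes was 0.0 with Brd9, −0.36 with Baf250A and 0.72 with Baf180 shRNA, against 0.04, −0.02 and −0.02 over all tested genes. With the GC and length offsets 30.1%, 35.3% and 38.2% of all genes were called, and 3 (2 higher), 3 (1 higher) and 6 (4 higher) of the 6. The split of all called genes moved most for Brd9, from 801 higher and 443 lower to 1459 higher and 2281 lower with the offsets. Since the 6 genes were chosen with these contrasts in view, nothing is read from their counts against the background.

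**Figure D1:**
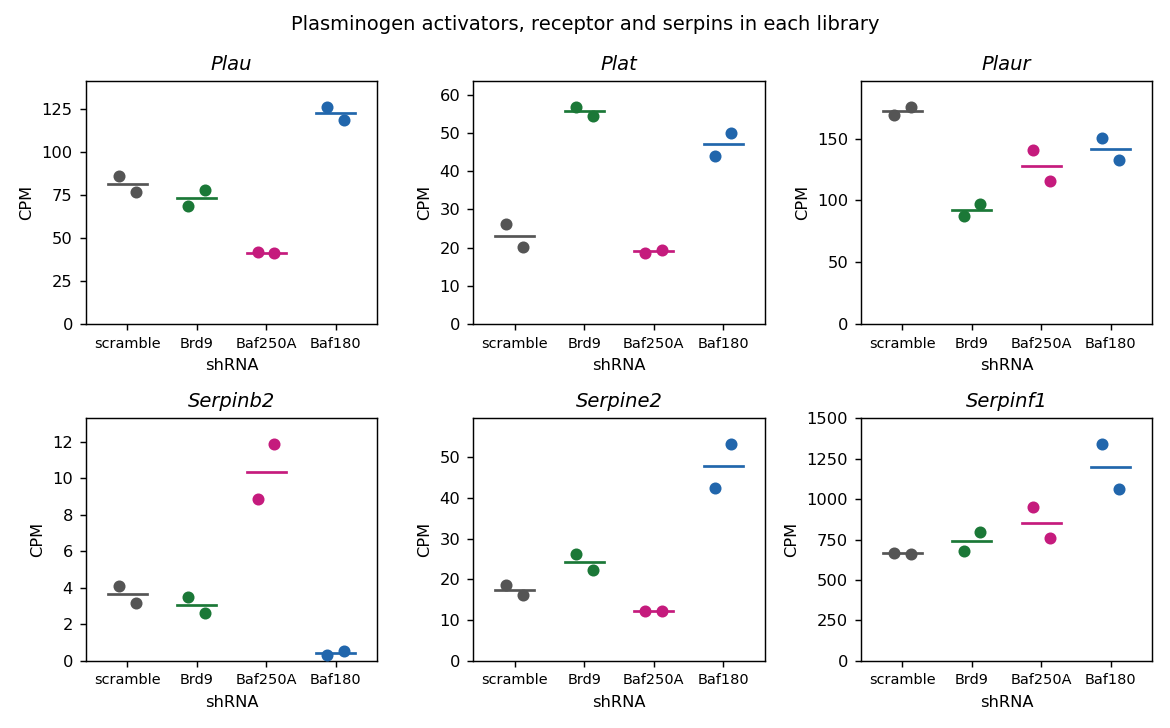
CPM (TMM-scaled) of the 6 genes in each library, on linear axes that start at 0, by shRNA; points are the 2 libraries of a group and lines their mean. Plau and Serpine2 were lowest with Baf250A and highest with Baf180 shRNA, Serpinb2 had the opposite order (11.9 CPM at most with Baf250A, 0.29 at least with Baf180 shRNA), and Plaur was highest with scramble.

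Plau encodes urokinase, the activator that works at the receptor (chromosome 14, 20836662 to 20843388, gene ID 18792). Gene coordinates here and below are those of RefSeq on GRCm38, which mm10 also denotes. Plau had 85.7 and 76.7 CPM in the scramble libraries, 68.6 and 78.0 with Brd9, 41.6 and 41.3 with Baf250A and 125.9 and 118.6 with Baf180 shRNA. Both Baf250A libraries lay below and both Baf180 libraries above all the others, and the Brd9 and scramble libraries overlapped. Against scramble the log2 fold change was −0.97 with Baf250A shRNA (SE 0.13, edgeR adjusted p = 0.00119), a level 1.96-fold lower. It was 0.59 with Baf180 shRNA (SE 0.13, edgeR adjusted p = 0.00983), 1.5-fold higher. That call was lost without scramble replicate 2 (0.51, adjusted p = 0.105) and without Baf180 replicate 1 (0.55, adjusted p = 0.0529). With Brd9 shRNA it was −0.15 with a 95% interval of −0.44 to 0.15.

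Plat encodes tissue-type plasminogen activator, the activator of clot lysis (chromosome 8, 22757722 to 22782848, gene ID 18791), and differed from Plau in which hairpins went with a high level. Its levels were 26.1 and 20.2 CPM with scramble, 56.8 and 54.5 with Brd9, 18.6 and 19.4 with Baf250A and 43.9 and 50.1 with Baf180 shRNA. The Brd9 and Baf180 libraries were well above the rest, and the Baf250A libraries lay just under the lower scramble library. Against scramble the log2 fold change was 1.27 with Brd9 shRNA (SE 0.16, edgeR adjusted p = 0.00184), 2.4-fold higher. With Baf180 shRNA it was 1.02 (SE 0.16, edgeR adjusted p = 0.00249), 2.03-fold higher. Each of these calls held in all 13 alternative settings, with a log2 fold change of 1.09 to 1.46 for Brd9 and 0.85 to 1.22 for Baf180. With Baf250A shRNA the value was −0.29, with a 95% interval of −0.66 to 0.08.

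Plaur encodes the urokinase receptor, a membrane-anchored protein that holds urokinase at the cell surface (chromosome 7, 24460937 to 24475970, gene ID 18793). It had 168.9 and 175.6 CPM with scramble, 87.7 and 97.1 with Brd9, 140.6 and 115.7 with Baf250A and 150.4 and 133.0 with Baf180 shRNA. Both scramble libraries were above the other 6, the Brd9 libraries were the lowest, and the Baf250A and Baf180 libraries overlapped. The log2 fold change against scramble was −0.90 with Brd9 shRNA (SE 0.14, edgeR adjusted p = 0.00574), 1.86-fold lower. Without scramble replicate 2 it was −0.87 and without Brd9 replicate 1 −0.80, not far from −0.90, but both times the call was lost. With Baf250A shRNA it was −0.43 (SE 0.14, edgeR adjusted p = 0.0494). That call was lost in 8 of 13 alternatives, among them leaving out any 1 of the 4 libraries (−0.51 to −0.24, adjusted p up to 0.435) and the GC and length offsets (−0.13, adjusted p = 0.249). With Baf180 shRNA it was −0.28, with a 95% interval of −0.60 to 0.04, and −0.61 with the offsets (adjusted p = 0.000368).

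The 250 bases before the annotated start of Plaur are shown because they hold a match to the AP-1 motif, which Fos and Jun proteins bind. RefSeq promoter windows were matched for 4 of the 6 genes, Plaur, Serpinb2, Serpine2 and Serpinf1. The window is chr7:24462233-24462482 on the plus strand of GRCm38.p6, from RefSeq, 5′ to 3′, and it ends at the base before the start. Capitals mark the AP-1 match TGACTCA, 69 to 63 bases before the start, and 3 GC boxes (GGGCGG), of which 2 share 1 base.
Plaur: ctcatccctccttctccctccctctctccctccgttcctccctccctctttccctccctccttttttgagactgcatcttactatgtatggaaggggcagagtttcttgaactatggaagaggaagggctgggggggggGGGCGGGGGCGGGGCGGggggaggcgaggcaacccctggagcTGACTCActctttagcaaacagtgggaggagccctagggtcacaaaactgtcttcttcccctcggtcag
The window is 59.6% GC, against a median of 52.4% over 32851 windows of this length. Of these windows, 6.75% hold an AP-1 match (TGANTCA) on either strand and 32.7% a GC box. The gene's annotated span begins upstream of this start, at 24460937. The match describes letters and no binding was measured.

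Serpinb2 encodes PAI-2, an inhibitor of urokinase that is found largely inside cells (chromosome 1, 107500892 to 107525600, gene ID 18788). By mean level per kilobase it was the least abundant of the 6 in each group. Its counts were 73 and 55 with scramble, 72 and 50 with Brd9, 176 and 230 with Baf250A and 5 and 10 with Baf180 shRNA. In CPM these were 4.10 and 3.18, 3.49 and 2.62, 8.85 and 11.9, and 0.29 and 0.546. The Baf250A libraries were above and the Baf180 libraries below all the others, without overlap. Against scramble the log2 fold change was −3.09 with Baf180 shRNA (SE 0.39, edgeR adjusted p = 0.000823), a level 8.53-fold lower. With Baf250A shRNA it was 1.51 (SE 0.28, edgeR adjusted p = 0.00542), 2.84-fold higher. With Brd9 shRNA it was −0.25, with a 95% interval of −0.91 to 0.41. The transcript is 39.3% GC, against 48.3% to 54.4% for the other 5. With the GC and length offsets the change was −2.32 with Baf180 shRNA and 0.59 with Baf250A shRNA (adjusted p = 0.061), so the call with Baf250A shRNA was lost.

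Between the knockdowns, Serpinb2 was 24.3-fold higher with Baf250A than with Baf180 shRNA (log2 fold change 4.60, SE 0.37, edgeR adjusted p = 4.68e-05). The value was 2.91 with the offsets and 2.91 to 5.12 over 12 alternatives, all of them called. The offsets used the GC content of transcripts and not that of the window before the start of Serpinb2. This window is shown because it is itself low in GC content and holds an AP-1 match. It is chr1:107511173-107511422, plus strand, GRCm38.p6, with the AP-1 match TGAATCA 94 to 88 bases before the start, TATAAA 29 to 24 bases before it, and ATTGG, the reverse complement of CCAAT, 210 to 206 bases before it, in capitals.
Serpinb2: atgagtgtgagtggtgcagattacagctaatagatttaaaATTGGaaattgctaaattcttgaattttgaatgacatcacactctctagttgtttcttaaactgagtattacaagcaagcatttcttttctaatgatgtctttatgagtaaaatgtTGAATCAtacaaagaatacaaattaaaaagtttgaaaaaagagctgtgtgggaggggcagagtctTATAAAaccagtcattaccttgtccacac
This window is 32.4% GC. TATAAA is present on either strand in 12.4% of all windows and CCAAT in 33.8%. RefSeq lists another start at 107511510, and the annotated span of the gene begins upstream of both.

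Serpine2 encodes protease nexin-1, a secreted inhibitor of thrombin, urokinase and plasmin (chromosome 1, 79794317 to 79858665, gene ID 20720). Its levels were 18.5 and 16.1 CPM with scramble, 26.3 and 22.2 with Brd9, 12.2 and 12.1 with Baf250A and 42.4 and 53.3 with Baf180 shRNA. The 4 groups did not overlap, with Baf250A lowest, then scramble, Brd9 and Baf180. The log2 fold change against scramble was 1.46 with Baf180 shRNA (SE 0.18, edgeR adjusted p = 0.000652), 2.76-fold higher, and the call held in all 13 alternatives (1.29 to 1.62). It was 0.48 with Brd9 shRNA (SE 0.18, edgeR adjusted p = 0.106) and −0.51 with Baf250A shRNA (SE 0.18, edgeR adjusted p = 0.058). With the GC and length offsets these were 0.40 (adjusted p = 0.0271) and −0.54 (adjusted p = 0.00699).

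Serpine2 and Serpinb2 lie on the same chromosome and had opposite orders of level with Baf250A and Baf180 shRNA. The Serpine2 window, shown for the contrast with Serpinb2, is chr1:79858666-79858915, read on the minus strand of GRCm38.p6, and holds 6 GC boxes (GGGCGG) in capitals, 161 to 8 bases before the start, of which 2 share 1 base.
Serpine2: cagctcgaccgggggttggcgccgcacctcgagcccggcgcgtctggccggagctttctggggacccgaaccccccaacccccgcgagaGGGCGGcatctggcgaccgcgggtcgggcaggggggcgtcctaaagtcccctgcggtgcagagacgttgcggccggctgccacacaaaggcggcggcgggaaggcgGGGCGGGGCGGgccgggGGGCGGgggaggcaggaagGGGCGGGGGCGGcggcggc
This window is 78.8% GC and has no match to the TATA, CCAAT or AP-1 letters. Further motifs searched on both strands were CAGCTG (E-box, in 13% of all windows), GGAATG (TEAD, 12.6%) and TGACGTCA (CRE, 1.55%), and none of these was found in the windows of Plaur, Serpinb2 or Serpine2.

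Serpinf1 encodes pigment epithelium-derived factor, a secreted serpin with no known protease-inhibiting activity that acts on cells through receptors (chromosome 11, 75410029 to 75422623, gene ID 20317). It was the most abundant of the 6. It had 667.0 and 662.0 CPM with scramble, 682.2 and 798.8 with Brd9, 953.1 and 757.6 with Baf250A and 1343.2 and 1061.0 with Baf180 shRNA. Both Baf180 libraries were above the other 6, the scramble libraries were the lowest, and the Brd9 and Baf250A libraries overlapped. The log2 fold change against scramble was 0.86 with Baf180 shRNA (SE 0.17, edgeR adjusted p = 0.00636), 1.81-fold higher, and 0.85 without scramble replicate 2, where the call was lost (adjusted p = 0.0528). With the offsets it was 0.52 and remained called. It was 0.36 with Baf250A shRNA (SE 0.17, edgeR adjusted p = 0.123), which became 0.66 with the offsets (adjusted p = 0.000301). With Brd9 shRNA it was 0.16, with a 95% interval of −0.22 to 0.53.

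**Figure D2:**
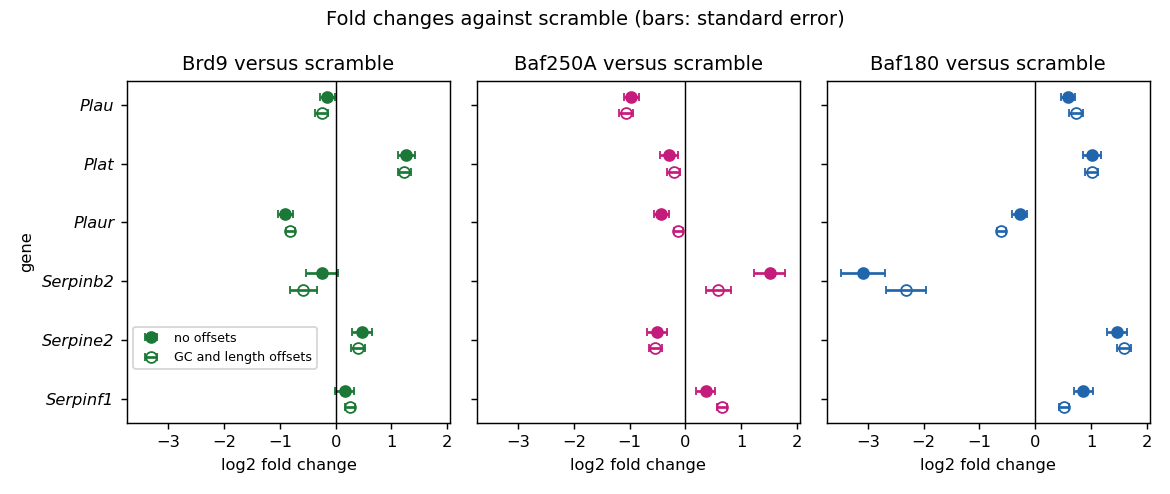
Log2 fold change of the 6 genes against scramble with each shRNA, with bars of 1 standard error; filled points are from the fit without offsets and open points from the fit with GC and length offsets, each on 2 libraries per group. The offsets moved Serpinb2 most (1.51 to 0.59 with Baf250A, −3.09 to −2.32 with Baf180 shRNA) and left Plat at 1.23 with Brd9 and 1.01 with Baf180 shRNA.

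The knockdowns also differed from each other. In these comparisons 25.0% of all tested genes were called between Baf250A and Brd9, 49.6% between Baf180 and Brd9 and 62.5% between Baf250A and Baf180, and 5 of the 6 genes were called in each. With Baf250A against Baf180 shRNA, Plau differed by −1.56 (SE 0.13), Plat by −1.31 (SE 0.16) and Serpine2 by −1.98 (SE 0.18) on the log2 scale, so that these levels were 2.95-fold, 2.48-fold and 3.94-fold lower with Baf250A shRNA. All 3 were called in every alternative. Serpinf1 was also called lower (−0.49, edgeR adjusted p = 0.0289). That call was lost without Baf250A replicate 2 (−0.30, adjusted p = 0.254), without Baf180 replicate 1 (−0.31, adjusted p = 0.190) and in a fit of the 4 libraries alone (−0.45, adjusted p = 0.066), and the sign turned with the offsets (0.14, adjusted p = 0.194). Plaur was −0.14 with a 95% interval of −0.46 to 0.18, and 0.48 with the offsets (adjusted p = 0.000807).

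With Baf250A against Brd9 shRNA, Plau (−0.82, SE 0.13), Plat (−1.55, SE 0.16) and Serpine2 (−0.99, SE 0.18) were called lower and Serpinb2 (1.76, SE 0.28) higher, in every alternative that tested them. With the offsets Serpinb2 was 1.16, and Serpinf1, at 0.21 without them (edgeR adjusted p = 0.393), was called at 0.41 (adjusted p = 0.00405). Plaur was called higher at 0.47 (edgeR adjusted p = 0.0398), a call lost in 6 of 13 alternatives, among them those without Brd9 replicate 1 (0.44, adjusted p = 0.125), Brd9 replicate 2 (0.58, adjusted p = 0.0724) or Baf250A replicate 1 (0.37, adjusted p = 0.161). With Baf180 against Brd9 shRNA, Plau (0.74, SE 0.13) and Serpine2 (0.98, SE 0.17) were called higher and Serpinb2 (−2.84, SE 0.39) lower, again in every alternative that tested them, with Serpinb2 at −1.75 with the offsets. Plaur (0.62, edgeR adjusted p = 0.00974) and Serpinf1 (0.70, edgeR adjusted p = 0.011) were called higher too. Without Brd9 replicate 1 they were 0.54 and 0.58 (adjusted p = 0.0785 and 0.0823), and without Baf180 replicate 1 0.53 and 0.52 (adjusted p = 0.0662 and 0.0797), and with the offsets 0.20 and 0.27 (adjusted p = 0.0921 and 0.0409), where the Plaur call was lost. Plat did not pass the threshold between these knockdowns (−0.24, 95% interval −0.60 to 0.11).

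Levels can be compared between genes only per length, and CPM per kilobase of the deposited gene length was used. With scramble the mean levels per kilobase were 443.9 for Serpinf1 (SD 2.37, 2 libraries), 114.2 for Plaur (SD 3.15), 34.7 for Plau (SD 2.7), 9.0 for Plat (SD 1.6), 8.37 for Serpine2 (SD 0.822) and 1.81 for Serpinb2 (SD 0.324). Plat and Serpine2 did not differ beyond the spread of their libraries. With Baf250A shRNA Serpinb2 (4.41 and 5.92 per kilobase) lay below Serpine2 (5.88 and 5.86) in replicate 1 and level with it in replicate 2. These levels carry no offsets, with which the rise of Serpinb2 with Baf250A shRNA was smaller (log2 fold change 0.59) and not called. With Baf180 shRNA Serpine2 (20.5 and 25.7) lay just above Plat (17.1 and 19.5), whereas with Brd9 shRNA Plat (22.1 and 21.2) was above Serpine2 (12.7 and 10.7).

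**Figure D3:**
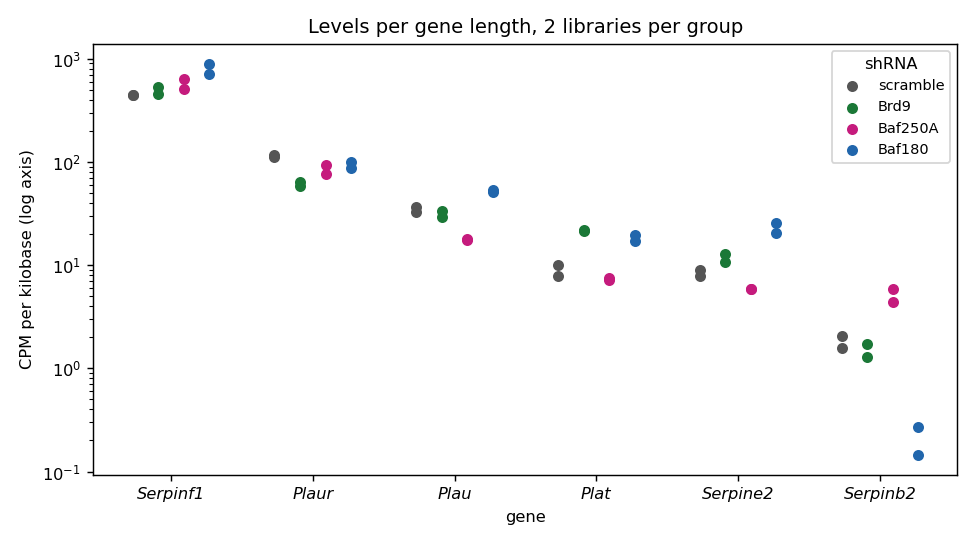
CPM per kilobase of gene length, on a log axis, for the 6 genes in each library; points of 1 colour are the 2 libraries of a group. Serpinf1 was the most abundant in every library and Serpinb2 ranged from 0.144 with Baf180 to 5.92 with Baf250A shRNA.

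Ratios of these levels were taken within each library. Plau to Plaur was 0.327 and 0.281 with scramble, 0.504 and 0.517 with Brd9, 0.19 and 0.23 with Baf250A and 0.539 and 0.574 with Baf180 shRNA, with the Baf250A libraries lowest. Plau to Plat was 3.61 and 4.16 with scramble and 1.33 and 1.57 with Brd9 shRNA, between which lay Baf250A (2.46 and 2.34) and Baf180 (3.14 and 2.59). These are ratios of transcripts and no protease activity was measured.

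The rest of the plasminogen system was described with a list of 74 further genes in 8 roles, of which 47 passed the filter. The list was chosen by function with earlier results of these data known, so nothing is read from its counts against the background. Plg, the gene of plasminogen itself, had at most 1 count in a library, and Serpinf2, the plasma inhibitor of plasmin, at most 4. Of the 47 genes, 14 rose and 1 fell with Brd9, 13 rose and 7 fell with Baf250A, and 17 rose and 5 fell with Baf180 shRNA. These were 31.9%, 42.6% and 46.8% of the 47, against 10.0%, 29.5% and 34.2% of all tested genes. The median log2 fold changes were 0.38, 0.15 and 0.26, against 0.04, −0.02 and −0.02 over all tested genes. With the GC and length offsets the counts were 16 higher and 5 lower, 13 and 12, and 22 and 9, when 30.1%, 35.3% and 38.2% of all tested genes were called. Without either scramble library fewer of the 47 genes were called with each hairpin, and fewer of all tested genes as well. The same held for Brd9 shRNA without Brd9 replicate 1, for Baf250A shRNA without Baf250A replicate 2 and for Baf180 shRNA without Baf180 replicate 1. The ranges for the 47 genes and for all genes are given in the last section.

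Among plasminogen-binding and related surface proteins, 5 of 8 listed genes were tested. Thbd, thrombomodulin, rose with every knockdown, from a mean of 20.3 CPM with scramble to 34.2 with Brd9 (log2 fold change 0.75), 72.2 with Baf250A (1.83) and 41.1 with Baf180 shRNA (1.02). The Brd9 call was lost without either scramble library (0.73 and 0.77, adjusted p = 0.147 and 0.146) or Brd9 replicate 1 (0.74, adjusted p = 0.102). S100a10, a plasminogen-binding partner of annexin A2, fell with Baf250A shRNA from 463.5 to 302.2 CPM (log2 fold change −0.62, edgeR adjusted p = 0.0191), a call lost when any 1 of the 4 libraries was left out (adjusted p up to 0.125). Plgrkt, a plasminogen receptor, did not pass the threshold with any hairpin (0.20, −0.12 and −0.16). With the offsets it was called lower with Baf250A shRNA (−0.51, adjusted p = 0.0215), and its sign turned with Baf180 shRNA (0.36, adjusted p = 0.0754).

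Of the receptor partners and clearance receptors of urokinase, 8 of 10 tested genes rose and none fell with Baf180 shRNA. With Brd9 shRNA 5 of 10 rose and with Baf250A shRNA 3 of 10, and none fell. Of all tested genes 17.2% rose with Baf180, 6.45% with Brd9 and 15.5% with Baf250A shRNA. In edgeR no gene of this role was lower at an unadjusted p below 0.05 with any hairpin, and DESeq2 and limma-voom called none lower either. Without either scramble library fewer genes of this role were called with each hairpin, and fewer of all tested genes as well. Lrp1, the receptor that internalises protease-serpin complexes, went from a mean of 1149.2 CPM with scramble to 2805.6 with Baf180 shRNA (log2 fold change 1.29, SE 0.13, edgeR adjusted p = 0.00028). Mrc2, a collagen receptor that associates with Plaur, went from 112.2 to 338.7 (1.59), the integrin subunit Itgb3 from 48.5 to 120.7 (1.31) and Itgb5 from 157.5 to 428.4 (1.44). These 4 calls held in each alternative. With Brd9 shRNA Lrp1 (0.65), Mrc2 (0.56), Itgb3 (0.78) and Egfr (0.77, or 0.46 with the offsets) rose, and all 4 calls were lost without scramble replicate 2 (adjusted p = 0.144, 0.262, 0.129 and 0.199). Without scramble replicate 1 those of Lrp1, Mrc2 and Egfr were lost, and without Brd9 replicate 1 those of Mrc2 and Egfr (adjusted p up to 0.212). Mrc2 was also lost without Brd9 replicate 2 (adjusted p = 0.0994). The fifth was Vldlr, a clearance receptor of low level (0.741 CPM with scramble and 3.83 with Brd9 shRNA, log2 fold change 2.36), lost without either scramble library (adjusted p up to 0.0591). Egfr rose with Baf250A shRNA from 15.4 to 52.6 CPM (1.77, SE 0.16) in every alternative. Mrc2 (0.51) and Itgav (0.95) also rose with Baf250A shRNA, at 0.81 and 0.30 with the offsets, but neither passed the threshold once scramble replicate 1 or 2 was left out (adjusted p = 0.0776 to 0.177). Mrc2 was lost without Baf250A replicate 1 as well (adjusted p = 0.11), and Itgav without Baf250A replicate 2 (adjusted p = 0.113).

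Of 16 listed substrates of plasmin and its activators, 12 were tested. With Baf250A shRNA 3 rose and 4 fell, and with Brd9 and Baf180 shRNA 4 rose and none fell in either. The shares of all tested genes that rose and fell were 15.5% and 14.0% with Baf250A, 6.45% and 3.57% with Brd9 and 17.2% and 17.0% with Baf180 shRNA. Without scramble replicate 2 fewer substrate genes were called with each hairpin, and fewer of all tested genes as well. At an unadjusted p below 0.05 in edgeR 1 substrate gene was lower with Brd9 and 0 with Baf180 shRNA, and DESeq2 called 1 and limma-voom 0 lower with Brd9 shRNA and neither called any with Baf180 shRNA. Fn1, fibronectin, fell with Baf250A shRNA from 5361.2 to 2611.3 CPM, a log2 fold change of −1.04 (SE 0.13). Tgfb1, a latent growth factor, fell from 179.3 to 63.7 CPM (−1.49, SE 0.26). In the same libraries Bdnf, whose precursor plasmin can cleave, rose from 10.6 to 47.2 CPM (2.16, SE 0.21) and Hgf from 7.56 to 24.1 (1.67, SE 0.28). Mmp2, a matrix metalloproteinase, rose with Baf180 shRNA from 86.9 to 241.4 CPM (1.47, SE 0.15), and Mmp14, which activates it, from 382.9 to 643.7 (0.75, SE 0.12). All 6 of these calls held without each library. With the offsets Bdnf was 1.31, Hgf 0.92 and Mmp14 0.46, all still called. The other substrates called with Baf250A shRNA were Nid1 (0.40, higher) and Thbs1 (−0.87) and Pdgfc (−0.61), both lower, and each of these calls was lost without 1 library or more (adjusted p up to 0.258). Tgfb1 also rose with Baf180 shRNA (0.86, edgeR adjusted p = 0.0293), and the call was lost with the offsets (0.22, adjusted p = 0.169) and without either scramble library or Baf180 replicate 1 (0.52, adjusted p = 0.208). Mmp2 rose with Brd9 shRNA to 184.4 CPM (1.09, edgeR adjusted p = 0.00264), with an adjusted p of 0.0554 without scramble replicate 2. Hgf (1.09), Thbs1, thrombospondin-1 (0.86), and Nid1, the basement membrane protein nidogen-1 (0.62, or 0.40 with the offsets), also rose with Brd9 shRNA. All 3 calls were lost without either scramble library or Brd9 replicate 1 (adjusted p = 0.116 to 0.232), and that of Hgf in limma-voom (adjusted p = 0.0532). Thbs1 rose with Baf180 shRNA as well (0.57, edgeR adjusted p = 0.0379), and this was lost without either scramble library or Baf180 replicate 2 (adjusted p = 0.128 to 0.183) and with upper-quartile scaling (adjusted p = 0.0548).

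**Figure D4:**
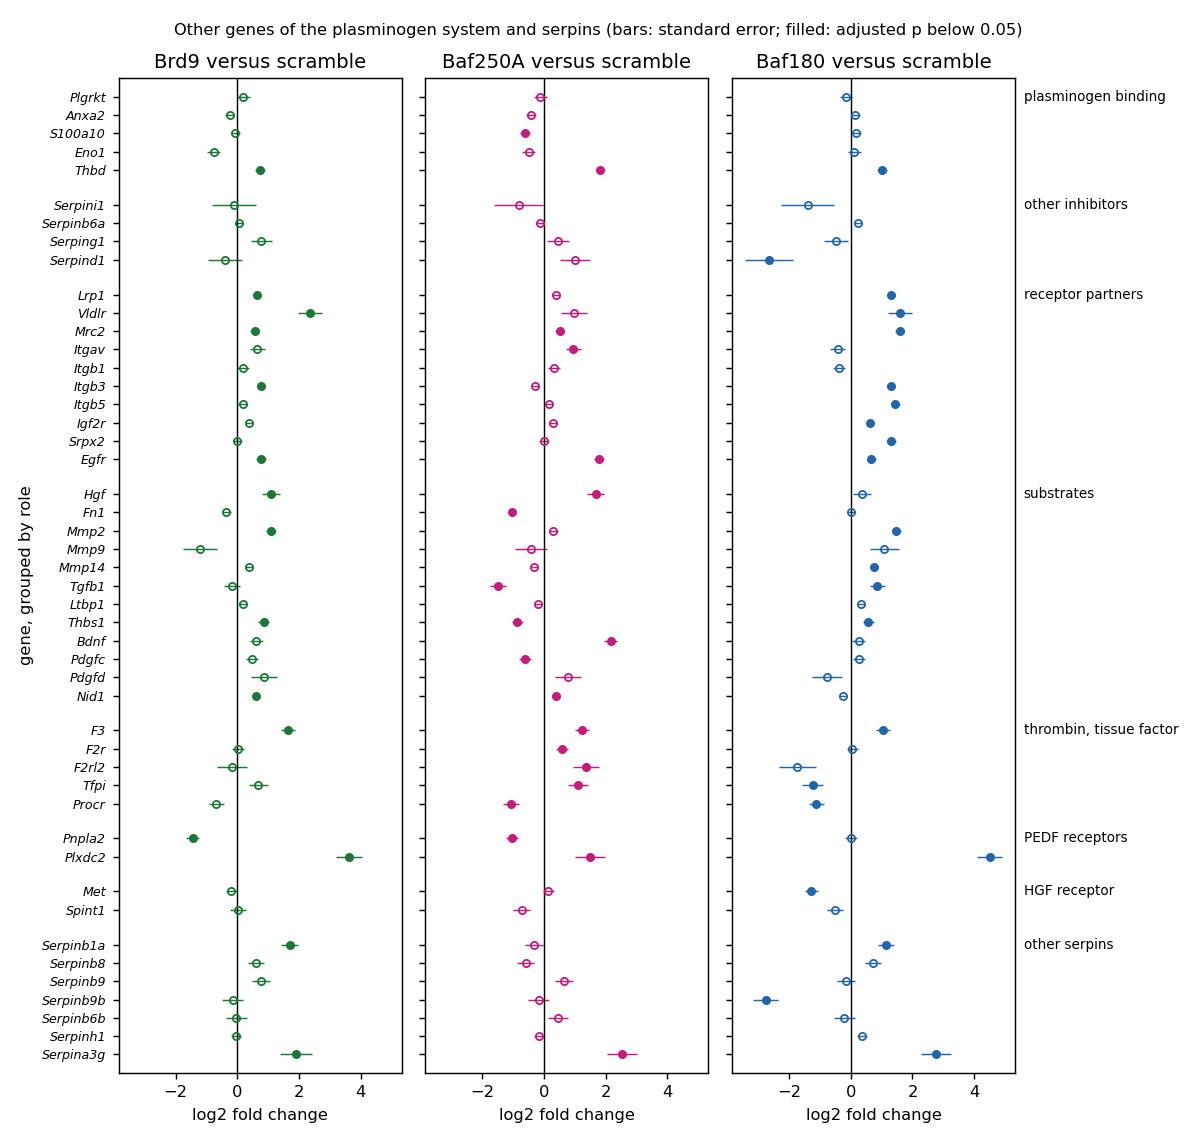
Log2 fold change against scramble of the 47 tested genes of the list, by role, with bars of 1 standard error; filled points had an adjusted p below 0.05, and each group has 2 libraries. The receptor partners lay mostly to the right with Baf180 shRNA (Lrp1 at 1.29, Mrc2 at 1.59), and Fn1 and Tgfb1 lay at −1.04 and −1.49 with Baf250A shRNA.

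Of thrombin, tissue factor and their receptors and inhibitors, 5 of 8 listed genes were tested. With Brd9 shRNA 1 rose, with Baf250A shRNA 4 rose and 1 fell, and with Baf180 shRNA 1 rose and 2 fell. Over all tested genes the shares that rose and fell were 6.45% and 3.57% with Brd9, 15.5% and 14.0% with Baf250A and 17.2% and 17.0% with Baf180 shRNA. Without scramble replicate 1, scramble replicate 2 or Baf250A replicate 2, F3 alone kept its call with Baf250A shRNA. With Baf180 shRNA fewer genes of this role were called without either scramble library. In each of these fits fewer of all tested genes were called too. F3, tissue factor, which starts the production of thrombin, the main target of Serpine2, rose with every knockdown. It went from a mean of 15.0 CPM with scramble to 47.0 with Brd9 (log2 fold change 1.65), 35.0 with Baf250A (1.23) and 30.7 with Baf180 shRNA (1.04), the last call being lost without scramble replicate 1 (adjusted p = 0.0593) or 2 (adjusted p = 0.0638). Thrombin itself, F2, had at most 1 count. Tfpi, the inhibitor of the tissue factor pathway, rose from 12.7 and 11.3 CPM with scramble to 21.4 and 30.4 with Baf250A shRNA (log2 fold change 1.10, edgeR adjusted p = 0.0274) and fell to 3.48 and 6.66 with Baf180 shRNA (−1.24, edgeR adjusted p = 0.0202). With the offsets these were 0.39, no longer called (adjusted p = 0.099), and −0.58. Both calls were lost without either scramble library, and without Baf250A replicate 2 or Baf180 replicate 1 respectively (adjusted p = 0.0634 to 0.139). F2r, a thrombin receptor, rose with Baf250A shRNA from 127.8 to 192.7 CPM (0.59, edgeR adjusted p = 0.0443), lost without either scramble library or Baf250A replicate 2 (adjusted p = 0.159 to 0.206). F2rl2, a related receptor, was called higher at 1.25 CPM against 0.482 (1.36), lost without any 1 of the 4 libraries (adjusted p up to 0.221) and with the offsets (1.13, adjusted p = 0.0631). Procr, the protein C receptor, fell from 10.6 CPM to 5.04 with Baf250A (−1.07) and 4.88 with Baf180 shRNA (−1.12), and both calls were lost without scramble replicate 1 (adjusted p = 0.0769 and 0.0584). The Baf250A call was lost also without scramble replicate 2 (adjusted p = 0.0521) or Baf250A replicate 2 (adjusted p = 0.115).

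Of 3 listed receptors named for the Serpinf1 product, 2 were tested. Pnpla2 fell from 58.5 CPM to 21.5 with Brd9 (−1.45, SE 0.20) and 28.7 with Baf250A shRNA (−1.03, SE 0.19), with the Baf250A call lost without Baf250A replicate 2 (−0.84, adjusted p = 0.0523) and at −0.65 with the offsets. Plxdc2, the other, was low with scramble (0.393 and 0.231 CPM). It rose with Brd9 shRNA to 4.65 and 3.19 CPM (log2 fold change 3.62, SE 0.42, edgeR adjusted p = 0.00113) and with Baf180 shRNA to 5.85 and 8.62 (4.50, SE 0.41, edgeR adjusted p = 0.000141), and both calls held without each library. With Baf250A shRNA it was 0.855 and 0.929 CPM (1.49, edgeR adjusted p = 0.0472), a call lost without any 1 of the 4 libraries (adjusted p up to 0.234) and with the offsets (0.73, adjusted p = 0.221). Met, the receptor of Hgf, fell with Baf180 shRNA from 70.8 to 29.1 CPM (−1.28, SE 0.20). Among other serpins, Serpinb1a rose with Brd9 (1.70) and Baf180 shRNA (1.14), and neither call held without scramble replicate 2 (adjusted p = 0.0767 and 0.102). Serpinb9b fell with Baf180 shRNA from 7.62 to 1.11 CPM (−2.76, SE 0.41). The Serpinb1 and Serpinb9 genes have close copies in the mouse, so their counts are uncertain.

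The genes most alike in level were ranked by Pearson correlation of log2 CPM over the 8 libraries, among named genes averaging 5 CPM or more whose SD over the libraries was at least 0.5 times that of the gene compared. The points share libraries and the GC trend, so these values are a description. For Plau they were Fdft1, Stimate and Als2cl, each at 0.993, and 331 of 6367 genes exceeded 0.95. Fdft1, squalene synthase, had 110.1 and 107.3 CPM with scramble, 90.2 and 98.3 with Brd9, 56.9 and 49.3 with Baf250A and 171.2 and 151.0 with Baf180 shRNA. For Plat they were Lama2 (0.986), Pnmal2 (0.982) and Pmp22 (0.981), with 42 of 5225 genes above 0.95. Lama2, a laminin chain of the muscle basement membrane, had 5.17 and 4.68 CPM with scramble, 29.5 and 24.0 with Brd9, 3.32 and 4.23 with Baf250A and 21.0 and 18.8 with Baf180 shRNA.

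For Plaur the most alike were Pola2 (0.987), Slc25a3 (0.982) and Rnf126 (0.982), with 44 of 8673 genes above 0.95. For Serpine2 they were Klhl8 (0.985), Mmp14 (0.984) and Slc22a15 (0.983), with 52 of 4504. Mmp14, the membrane metalloproteinase listed above among the substrates, had 399.1 and 366.7 CPM with scramble, 506.5 and 489.2 with Brd9, 307.2 and 310.1 with Baf250A and 621.4 and 666.1 with Baf180 shRNA, the same order of groups as Serpine2. For Serpinf1 they were Ecm1 (0.992), Lamb2 (0.991) and Aqp1 (0.991), with 68 of 8615. Ecm1, a secreted matrix protein, ran from 365.7 CPM in a scramble library to 1018.4 in a Baf180 library. Serpinb2 had a mean below 5 CPM and was not ranked.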

How the data were processed

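RNA libraries of 8 C2C12 samples were made at BGI from total RNA and run on a BGISEQ-500, per the labels' protocols. The authors deposited 1 table of raw estimated counts by gene and library. Per the submitters' processing notes the tools were RSEM, Bowtie2, HISAT2, StringTie, Cufflinks and DESeq2, with the mm10 build. Not given in the sources used here are what each did, its version and whether counting used strand. Overlapping and antisense genes are therefore uncertain. The deposited table also holds another value, the gene length in bases, per the file headers. Groups follow the sample titles. Of 24573 genes, 24479 were matched to a RefSeq gene table (GRCm38) by ID and 9 by accession.

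Estimated counts were rounded. The filterByExpr defaults kept 12420 genes, and TMM factors ran from 0.8458 to 1.123. One quasi-likelihood fit in edgeR 4.0.16 (R 4.3.3) on all 8 libraries, with a factor of 4 groups, gave 6 comparisons, with Benjamini-Hochberg adjustment over all tested genes of a comparison and calls at an adjusted p below 0.05. Standard errors were derived from the log2 fold change and the F statistic, and 95% intervals used 4 residual and 5.26 prior degrees of freedom. Alternatives were upper-quartile and RLE scaling, no filter, DESeq2 1.42.0, limma-voom (limma 3.58.1), a filter at a mean of 5 CPM, a fit of the 4 libraries compared, a replicate block, leaving out each library, and loess offsets (span 0.3) for GC content and length. GC content of GENCODE M21 transcripts was found for 98.95% of tested genes. On simulated counts with these depths, the fit recovered 92.4% to 93.9% of 4-fold, 53.7% to 67.2% of 2-fold and 19.4% to 23.9% of 1.5-fold changes, with 5 or 6 false calls among 12420 genes. The simulation took each gene's spread from the trend with level, held no GC trend and changed only 66 or 67 genes per fold. The data differ in these respects, so the rates check the code and do not give the power or error in the data.

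The 6 genes and the lists were chosen with earlier results of these data known. Named from the list of 74 were Plg, Plgrkt and Serpinf2 whatever their result, and per comparison with scramble up to 4 called genes of a role with a mean of at least 5 CPM, in order of p. A further gene of the list is not reported here and was left out of its counts. F2, F2rl2, Pdgfc, Plxdc2 and Vldlr, and Nid1 and Thbs1 with Baf250A shRNA, were named outside this rule after their values were seen. Promoter windows are RefSeq sequence of GRCm38.p6.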

Additional observations from a re-analysis of the deposited data

How the results depend on the processing

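Of 462 values for the 6 genes under the alternatives, 425 kept direction and side of the threshold, 28 were no longer called, 6 became called and 3 changed sign. For the named genes of the list, in the comparisons that met the naming rule, these were 500 of 572, 67, 1 and 4. Apart from those of Plgrkt, these comparisons were called to begin with, so few could become called. Over all 47 tested genes of the list the offsets took the number called from 15 to 21 (Brd9), 20 to 25 (Baf250A) and 22 to 31 (Baf180). Among the tallied values, the sign changed with the GC and length offsets for Plaur (0.48) and Serpinf1 (0.14) between Baf250A and Baf180, and for Plgrkt (0.36) with Baf180 against scramble. With 1 library left out, Plgrkt ran from −0.30 to 0.09 with Baf250A and from −0.35 to 0.05 with Baf180 against scramble, and Plaur from −0.25 to 0.03 between Baf250A and Baf180; the cause was not tested. The number of the 6 genes called then ran from 1 to 2 for Brd9 and 3 to 5 for Baf180 against scramble and from 3 to 5 for Baf180 against Brd9, and that of the 47 listed genes from 3 to 16 (Brd9), 9 to 15 (Baf250A) and 13 to 20 (Baf180). Leaving out a library leaves a lone library in its group, which is assumed to vary like the others.

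The labels do not say whether replicate numbers pair the libraries. The differences between replicates of 2 groups correlated across genes from −0.4814 to 0.4556, and values of both signs do not settle it. With the replicate block 2, 2 and 5 of the 6 genes were called against scramble for Brd9, Baf250A and Baf180. Of all 12420 tested genes 721, 3020 and 3486 were called. All called genes for Brd9 against scramble were 1244, but 3740 with the offsets, 2588 with no filter, 2540 in the fit of 4 libraries and 231 to 1020 with a library left out. With a library left out the counts for Baf250A and Baf180 against scramble ran from 1171 to 3721 and 1560 to 4514 (3669 and 4253 with all), for Baf250A against Brd9 from 1381 to 2572 (3108 with all, 5475 with the offsets) and for Baf180 against Brd9 from 1150 to 6605 (6158 with all, 4094 with the offsets). Upper-quartile scaling moved the share of higher calls between Baf180 and Brd9 from 2888 of 6158 to 2149 of 5804. Serpinb2 has no value at a mean of at least 5 CPM. The depth limits Serpinb2 most, with 5 and 10 counts in the Baf180 libraries.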
